A study of Rattus norvegicus with 12 samples.

Results

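Late cirrhosis was described here as the comparison of rat liver at 9 weeks of a carbon tetrachloride (CCl4) model with normal rat liver. Members were the 3 arrays titled 9w and the 3 titled 0h, 6 of the 12 arrays of the series, and the values were their scaled signals on log2(signal + 16). The other 6 arrays hold the same model at 3 and at 6 weeks. They entered the fit for its estimate of spread and the direct contrasts with 9 weeks.

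Both groups are liver of Sprague-Dawley rats, labelled as 12-week-old at every time, sampled in the right lobe at its middle. The 0h group is normal liver, and the 9w group is liver of rats made cirrhotic with CCl4, given for 9 weeks; dose, route and vehicle are not given in the sources used here. No genetic change is labelled in either group. Sex and the number of animals are not given either, and GEO's descriptions mark a group's 3 arrays as technical repeats, so each p-value below measures the spread between arrays, which may be smaller than that between rats. If the arrays of a group share an extract, the comparison is between single extracts. The 0h rats are the single control in the comparison, since no group given vehicle alone was analysed here, so CCl4, its vehicle and the time in the model cannot be told apart.

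CCl4 is turned into a reactive radical by cytochrome P450 in hepatocytes around the central vein, and repeated injury leads to scarring. Stellate cells, which store vitamin A in healthy liver, then become myofibroblasts that lay down collagen, while macrophages and lymphocytes gather in the scar and bile duct-like cells spread. In the hepatocyte, long injury is known for a retreat of drug, bile acid and lipid enzymes and for stress programmes that make glutathione and amino acids.

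The array carries 31099 probe sets, 57 of them controls, and 19898 had a gene symbol. After a filter on dim probe sets, 10322 genes were tested, each through its brightest probe set. The trimmed mean signal was 500.0 on all 12 arrays, and their median log2 values ran from 7.09 to 7.31. Pearson's r across probe sets was 0.967 to 0.977 between arrays of the same group and 0.937 to 0.94 between a 0h and a 9-week array. Probe sets for the 3′ end of beta-actin were 2.15 to 2.71 times as bright as those for its 5′ end at 0h and 3.24 to 3.8 times at 9 weeks, and for GAPDH the ratio was 1.08 to 1.19 against 1.39 to 1.43. These ratios are a common sign of RNA quality and did not overlap between the groups. Their part in the changes below was not tested, and since the 3 arrays at 9 weeks share the higher ratios, they cannot be told apart from the group.

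The 8 hepatocyte markers were bright in both groups and none was called, with a median log2 change of -0.3 against 0.07 over all genes. Albumin (Alb) gave signals of 39718, 45152 and 37639 at 0h and 34116, 33477 and 35525 at 9 weeks. Transthyretin (Ttr) gave signals of 35319, 37710.2 and 32734 at 0h and 29109, 25506 and 31187 at 9 weeks. The summed signal of the 8 markers was 291876 to 339789 at 0h and 235647 to 262609 at 9 weeks, so these defining markers were present in both groups, with lower sums at 9 weeks. In bulk liver a change in the number of cells of a type and a change in RNA per cell cannot be told apart.

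A gene was called when limma's adjusted p was below 0.05 and the change was at least 2-fold. By this rule 1027 genes differed between 9 weeks and 0h, which is 9.95% of those tested. At 9 weeks 652 genes were higher (6.32%) and 375 lower (3.63%). Counts of called list members below are to be read beside these shares. On 1010 of the 1027 the 3 arrays of each group lay apart from the other 3, read beside 35.9% of all genes whose 9-week arrays lay above every 0h array and 25.9% whose arrays lay below. With adjusted p alone 5746 genes (55.7%) passed, so the fold limit sets the counts. Among the rises, 539 were below 2 on the log2 scale and 27 reached 3 or more. Among the falls, 305 were below 2 in size and 27 reached 3 or more. Rises started from dim signals in 166 cases (below 100 at 0h). In contrast, 53 genes that fell and 11 that rose had a mean signal above 10000 in either group.

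**Figure D1:**
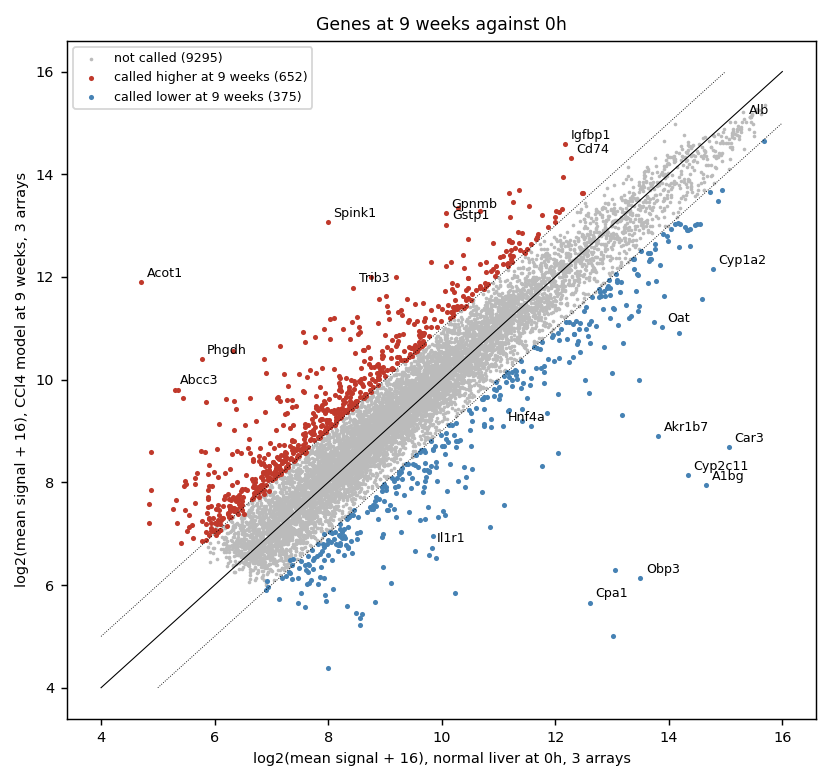
Mean signal of each of 10322 genes at 0h (x axis) and at 9 weeks (y axis), both as log2(signal + 16) over 3 arrays; the solid line marks equal signals and the dotted lines 2-fold. The 652 genes called higher (red) spread from dim 0h signals upwards, whereas Cyp2c11, A1bg, Car3 and Akr1b7, among the 375 called lower (blue), were among the bright genes of normal liver.

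Among genes with a full symbol, the 20 largest rises ran from 7.28 to 3.12 and the 20 largest falls from -7.39 to -3.22 on the log2 scale. Levels in the text are scaled signals, given per array or as mean ± SD (n = 3 arrays), and changes are 9 weeks minus 0h on log2(signal + 16) with limma's adjusted p. Acot1, a cytosolic thioesterase that frees fatty acids from coenzyme A, gave signals of 3.0, 24.8 and 2.9 at 0h and 4077, 3755 and 3543 at 9 weeks. It was near the floor at 0h on all 3 arrays and bright at 9 weeks, and its log2 change of 7.28 (SE 0.23, adjusted p = 6.66e-14) depends on the offset there, running from 5.71 to 9.00 over the settings tried. The mean signal was 26.1 at 3 weeks and 3845 at 6 weeks, so the 9-week level was above that at 3 weeks by 6.51 (adjusted p = 5.31e-13), while its difference from 6 weeks was -0.02 (adjusted p = 0.968). Spink1, a trypsin inhibitor, gave signals of 177, 250.3 and 287 at 0h and 9047, 8228 and 8469 at 9 weeks. Here the 3-week mean was already 10074. Gucy2c, a receptor that makes cyclic GMP and is best known from gut, gave signals of 58.6, 21.4 and 2.7 at 0h and 799.5, 737 and 821 at 9 weeks. Its groups did not overlap, with a change of 4.42 (SE 0.32, adjusted p = 3.98e-09). Hid1 and Nol3, the latter an inhibitor of apoptosis, rose by 3.51 and 3.53. Isyna1, which makes inositol phosphate from glucose phosphate, rose by 3.38, and Cyp17a1, a steroid hydroxylase, by 3.25. The 6-week means of these 4 genes were already 1606, 1228, 1911 and 4711, beside 9-week means of 1598, 1337, 1936 and 4059.

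Among the largest falls were bright transcripts of normal liver. Obp3, a lipocalin with near-identical relatives that its probe set may also read, gave signals of 11655, 10825 and 12216 at 0h and 52.4, 41.3 and 68.1 at 9 weeks. A1bg, a plasma glycoprotein, gave signals of 26293, 26975 and 24289 at 0h and 240.4, 245 and 205 at 9 weeks. Car3, a carbonic anhydrase, gave signals of 35373, 36228 and 30935 at 0h and 375, 391 and 424 at 9 weeks. On all 3 genes each 0h array lay far above each 9-week array. Akr1b7, an aldo-keto reductase, dropped from 14352 ± 501 at 0h to 459.6 ± 26.8 at 9 weeks. Smaller signals were lost for Stac3, known from muscle (1825 ± 88.7 at 0h to 124 ± 8.8 at 9 weeks), Inmt, an amine methyltransferase (939.9 ± 96.0 at 0h to 76.6 ± 8.7 at 9 weeks), and the neurotrophin Ntf3 (435 ± 61.1 at 0h to 35.0 ± 22.0 at 9 weeks). Acadsb, which breaks down branched short acyl chains, fell from 2166 ± 106 at 0h to 174 ± 15.6 at 9 weeks, a change of -3.53 (SE 0.09, adjusted p = 5.93e-15). It was at 762 at 6 weeks, and the 9-week minus 6-week difference was -2.04 on the log2 scale (adjusted p = 3.82e-11).

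Of the ATF4 and CHOP response, 15 genes rose and 1 fell. This programme is turned on when amino acids are short or the endoplasmic reticulum is loaded, and ATF4 then drives amino acid synthesis and uptake. Of 37 listed genes 33 were measured, 17 of these were not called, and the median change was 0.95 against 0.07 over all genes. Phgdh, the first enzyme of serine synthesis, gave signals of 32.2, 47.3 and 36.5 at 0h and 1403, 1381 and 1215 at 9 weeks. Trib3, a pseudokinase that restrains the pathway, gave signals of 316, 339 and 343 at 0h and 3363, 3764 and 3428 at 9 weeks. Both were low on every 0h array and high on every 9-week array, with changes of 4.63 (SE 0.14, adjusted p = 5.26e-14) and 3.34 (SE 0.09, adjusted p = 2.05e-14). Fgf21, a hormone of the fasting and stressed liver, gave signals of 131, 124 and 58.1 at 0h and 1184, 1034 and 1078 at 9 weeks. Its groups did not overlap, and its mean at 6 weeks of 508 was below the 9-week mean by 1.09 on the log2 scale (adjusted p = 0.00138). Asns, which makes asparagine, gave signals of 207, 165 and 152 at 0h and 747, 939.9 and 859.8 at 9 weeks. Ddit3, the CHOP gene itself, gave signals of 508, 454 and 402 at 0h and 1309, 1241 and 1174 at 9 weeks. The 9-week arrays lay above the 0h arrays in both, by 2.19 (SE 0.13, adjusted p = 4.81e-10) and 1.42 (SE 0.09, adjusted p = 8.95e-10). Atf3 rose by 2.86, the lipoprotein receptor Vldlr by 2.59, Atf5 by 1.85 and Nupr1 by 1.45. Atf4 itself was not called, with 6657 ± 42.5 at 0h and 9511 ± 229 at 9 weeks and a change of 0.51 (SE 0.04, adjusted p = 2.27e-08), a gene known to be controlled mainly at translation. Slc7a11, the cystine carrier, rose by 1.99, Slc7a1 by 1.63 and Slc3a2 by 1.25. Over the 20 amino acid carriers measured, 5 rose, 2 fell and 13 were not called, with a median of -0.06. Gpt2, an alanine aminotransferase, was the ATF4 and CHOP member called lower (-1.10, SE 0.10, adjusted p = 1.16e-07). Other members were lower without a call. Aars1 gave signals of 5997, 5653 and 5584 at 0h and 4323.5, 3911 and 4191.5 at 9 weeks, and Cars1 had a log2 difference of -0.28. Of the folding genes of the endoplasmic reticulum, 2 of 29 rose (6.9%), Hyou1 (2.23) and Syvn1 (1.55), close to the 6.32% of all genes called higher. The chaperone Hspa5 had a log2 difference of 0.23 (SE 0.05, adjusted p = 0.000886) and was not called.

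Of the 33 ATF4 and CHOP genes, 18 were higher at 9 weeks than at 3 weeks and 0 lower, read beside 3.01% and 2.77% of all genes tested in that contrast. Against 6 weeks 1 was higher and 1 lower, beside 1.94% and 0.591% of all genes.

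Promoters of the 4 rising members that hold the ATF4 composite element are printed because they show where these letters sit in front of the genes that rose. The motif searched was TGATGNAA on both strands, in the 250 bases before to 50 after the RefSeq start (GRCr8). It was found in 4 of the 14 rising members with a promoter in the table, in 5 of 16 members that were not called, and in 3.98% of all 33469 promoters of that length. Stretches of 60 bases are given on the gene's strand, with the match in capitals.
Trib3, chr3:161275534-161275593, minus strand, ending at the base before the start: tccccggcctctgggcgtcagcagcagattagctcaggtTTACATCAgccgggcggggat
Slc7a1, chr12:11664428-11664487, plus strand, ending at the base before the start: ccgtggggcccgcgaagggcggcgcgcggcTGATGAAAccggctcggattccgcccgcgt
Nupr1, chr1:190645923-190645982, minus strand, 81 to 22 bases before the start: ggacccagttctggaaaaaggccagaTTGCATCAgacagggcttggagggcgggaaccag
Fgf21, chr1:105221486-105221545, minus strand, 169 to 110 bases before the start: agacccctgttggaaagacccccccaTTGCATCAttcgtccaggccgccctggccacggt
No match of this motif in a member's promoter overlapped a match of either motif searched below.

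**Figure D2:**
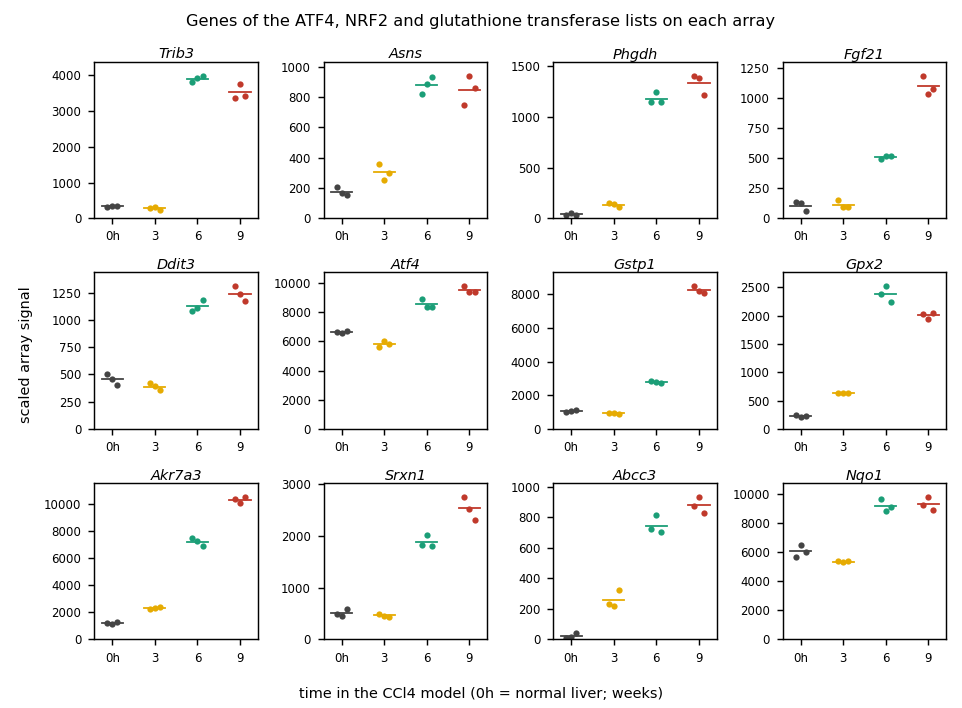
Scaled signal (y axis, linear from 0) on each of the 12 arrays for 12 genes by time in the model (x axis); points are arrays and the line is the mean of 3. Trib3, Asns, Phgdh and Ddit3 stood low at 0h and 3 weeks and high at 6 and 9 weeks, while Gstp1 stood at 2775 at 6 weeks and 8254 at 9 weeks.

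Antioxidant and conjugating genes driven by NRF2, the factor that KEAP1 releases when it meets electrophiles, were the next list. Of 34 measured members (of 40 listed) 9 rose (26.5%, beside 6.32% of all genes), 0 fell and 25 were not called, with a median of 0.49. Akr7a3, which reduces toxic aldehydes, gave signals of 1234, 1170.2 and 1286 at 0h and 10370.2, 10110.1 and 10519 at 9 weeks. Gpx2, a glutathione peroxidase, gave signals of 253, 205 and 225 at 0h and 2028, 1933 and 2043 at 9 weeks. Abcc3, an export pump of the blood-facing membrane, gave signals of 7.7, 19.0 and 43.3 at 0h and 876, 932 and 828 at 9 weeks. The groups lay apart in all 3, with changes of 3.06 (SE 0.05, adjusted p = 2.83e-17), 3.05 (SE 0.08, adjusted p = 4.11e-15) and 4.61 (SE 0.24, adjusted p = 4.9e-11). Akr1b8 rose by 3.16 and the sulfiredoxin Srxn1 by 2.27. Of the best known targets, Nqo1 had a log2 difference of 0.62 (SE 0.05, adjusted p = 2.46e-08), Gclc of 0.81 (SE 0.06, adjusted p = 1.59e-09) and Hmox1 of 0.54 (SE 0.06, adjusted p = 4.35e-07), and none was called. Against 3 weeks 9 of the 34 were higher at 9 weeks and 0 lower, beside 3.01% and 2.77% of all genes. The antioxidant response element TGACNNNGC was found in 1 of 8 rising members with a promoter, in 6 of 19 not called, and in 12.1% of all promoters. The rising member was Gpx2, shown here for that match.
Gpx2, chr6:101230034-101230093, minus strand, ending at the base before the start: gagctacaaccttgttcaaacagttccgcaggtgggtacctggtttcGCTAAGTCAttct

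Glutathione transferases, which join glutathione to foreign compounds, went both ways: of the 17 listed genes that were measured, 2 rose and 2 fell. Gstp1, low in normal hepatocytes and a known marker of early rat liver nodules, gave signals of 996, 1069 and 1142 at 0h and 8465, 8192 and 8105 at 9 weeks. It was 7.6-fold higher at 9 weeks, and 9 weeks also exceeded 6 weeks by 1.57 on the log2 scale (adjusted p = 9.45e-13). Its relative Gstp3, which is not in that list, fell from 11389 ± 188 at 0h to 1003 ± 102 at 9 weeks. Gstm4 rose by 4.43, while Mgst3 and Gstm3 fell (-2.05 and -1.79 on the log2 scale). Transcripts in this family resemble each other, and probe sets of Gsta3 disagreed: they gave -0.44, -1.11 and 1.45.

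Of the 40 measured genes in the list of P450 enzymes and their regulators 6 fell, 2 rose and 32 were not called, beside 3.63% lower and 6.32% higher among all genes. Cyp17a1 and Cyp4a8, P450 genes outside that list, rose by 3.25 and 1.38. A second probe set of Cyp4a8 gave 0.56, not a call. Cyp2c11, the main P450 of male rat liver (the file names it Cyp2c), gave signals of 21083, 21169.5 and 19903 at 0h and 227, 267 and 305 at 9 weeks. Cyp1a2, which clears caffeine and activates aromatic amines, gave signals of 28349, 29461 and 26117 at 0h and 4601, 4690.1 and 4274 at 9 weeks. Cyp3a9 gave signals of 13994, 13414 and 13682 at 0h and 2117, 2369 and 2119 at 9 weeks. In these 3 genes the groups lay far apart, with changes of -6.21 (SE 0.09, adjusted p = 5.25e-18), -2.62 (SE 0.06, adjusted p = 3.19e-15) and -2.63 (SE 0.06, adjusted p = 1.23e-15). Cyp1a1, a relative of Cyp1a2 driven by the same receptor, rose from 41.6 ± 12.8 at 0h to 745 ± 18.2 at 9 weeks, whereas that receptor's gene Ahr fell by 1.31 and its partner Arnt fell by 1.58. Cyp4b1 rose by 1.94. Cyp2e1, the enzyme that activates CCl4, was not called and had a log2 difference of -0.29 (SE 0.06, adjusted p = 0.000581). Among other enzymes of foreign compounds and steroids, of 23 sulfotransferases and glucuronosyltransferases 4 fell and 1 rose, of 36 aldo-keto reductases and dehydrogenases 7 fell and 3 rose, and of 9 carboxylesterases and paraoxonases 4 fell. Sult1c3 fell from 18655 ± 275 at 0h to 1899 ± 183 at 9 weeks, Srd5a1, which reduces testosterone, from 24639 ± 1009.9 at 0h to 3028 ± 181 at 9 weeks and the esterase Ces1d from 9203 ± 292 at 0h to 617 ± 80.6 at 9 weeks.

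Among genes with a known sex bias in rat liver, 12 fell and 1 rose, read beside 3.63% lower and 6.32% higher among all genes. Of 16 measured male-biased genes 6 fell (Obp3, Car3, Cyp2c11, Akr1b7, Sult1c3 and Sult1e1), 1 rose and 9 were not called. Of 15 female-biased genes 9 were not called, 0 rose and 6 fell. Those that fell include A1bg (-6.72, SE 0.11, adjusted p = 7.12e-17), the prolactin receptor Prlr (-2.86, SE 0.05, adjusted p = 9.41e-17) and Hao2 (-2.10, SE 0.06, adjusted p = 1.84e-14). Bcl6, a repressor that is higher in male liver, was the male-biased gene that rose (1.95, SE 0.15, adjusted p = 6.97e-09). The lists share members with those of P450 and reductase genes. The Y-linked gene Uty was present on all 6 arrays, with signals of 1368, 1518 and 1307 at 0h and 855, 852 and 955 at 9 weeks. The 9-week minus 0h difference was -0.65 on the log2 scale, below the limit for a call.

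Growth hormone is known to set much of that sex bias. Its receptor and main product were lower at 9 weeks, and whether growth hormone had a part in the falls above was not tested. Ghr, its receptor, gave signals of 14374, 15767 and 14005 at 0h and 4687, 4807 and 4819 at 9 weeks. Igf1, its main product in liver, gave signals of 29957, 31321 and 28398 at 0h and 11433, 10963 and 11679 at 9 weeks. The groups lay apart in both, with changes of -1.62 (SE 0.05, adjusted p = 1.72e-13) and -1.39 (SE 0.05, adjusted p = 4.98e-13). Igfals and Igfbp3, which carry IGF in blood, fell (-1.10 and -1.26 on the log2 scale). A second probe set of Igfbp3 gave -0.86, not a call. Cish, also of the growth hormone axis, had a log2 difference of -0.30 and was not called. Socs2 of that axis gave signals of 564.5, 513.5 and 611.5 at 0h and 616.2, 599.3 and 634.9 at 9 weeks. Igfbp1, a binding protein that rises in fasting and stress, gave signals of 4496, 4576 and 4741 at 0h and 24579, 23445 and 25380.2 at 9 weeks. Igfbp4 and Igfbp2 rose by 2.34 and 2.13. Met, the receptor for hepatocyte growth factor, gave signals of 489, 431 and 533 at 0h and 89.8, 105 and 137 at 9 weeks, a change of -1.99 (SE 0.16, adjusted p = 1.87e-08). Egfr, the receptor for epidermal growth factor, dropped from 4729 ± 87.3 at 0h to 1746 ± 122 at 9 weeks, while Igf2r, which takes up IGF2, rose by 1.16. Other probe sets of Egfr gave -0.49, not a call, and -1.17, and another of Igf2r gave 0.68, not a call. Met was at 223 at 6 weeks, above its 9-week mean by 0.93 on the log2 scale, which was not a call. Over the 33 growth factor and receptor genes measured, 9 rose and 7 fell, and Pdgfa (1.62), a mitogen for stellate cells, and Tnfrsf12a (219 ± 24.7 at 0h to 696 ± 59.9 at 9 weeks), a receptor for TWEAK, were among the rises.

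Transcription factors that hold hepatocyte identity were mixed, with 4 of 31 lower and 3 higher. Hnf4a, a master regulator of hepatocyte genes, gave signals of 2127, 2149 and 2139.5 at 0h and 565, 465 and 563 at 9 weeks. Onecut1 gave signals of 5447, 5955 and 6161 at 0h and 985, 1050.1 and 974 at 9 weeks. Each 9-week array lay below each 0h array, with changes of -1.98 (SE 0.08, adjusted p = 1.28e-12) and -2.53 (SE 0.06, adjusted p = 2.19e-15), and a second probe set of each gave -1.35 and -1.76. Hnf4a stood at 1058 at 3 weeks and 1149 at 6 weeks, and 9 weeks was lower than 6 weeks, at a log2 difference of -1.10 (adjusted p = 1.4e-08). Nr5a2, which drives bile acid genes, fell by 1.23. Cebpb, an inflammatory and regenerative factor, rose by 1.18.

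**Figure D3:**
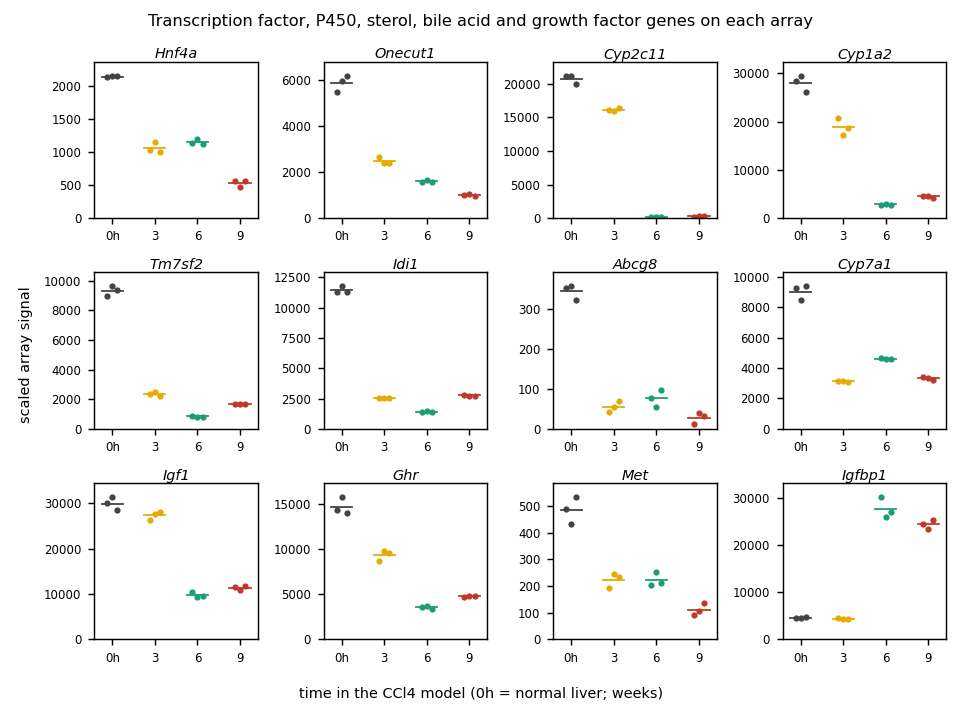
Scaled signal (y axis, linear from 0) on each of the 12 arrays for 12 genes by time in the model (x axis); points are arrays and the line is the mean of 3. Hnf4a, Onecut1 and Met were lowest at 9 weeks, Igf1 and Ghr were slightly above their 6-week means, and Igfbp1 was high at 6 and 9 weeks.

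Cholesterol synthesis was the list with the lowest median among those with at least 13 measured genes. Of 29 measured genes (of 31 listed) 13 fell, 0 rose and 16 were not called, with a median of -0.96. Tm7sf2, a sterol reductase, gave signals of 8995, 9616 and 9380.3 at 0h and 1671, 1647 and 1651 at 9 weeks. Idi1, which makes the isoprene unit, gave signals of 11239.9, 11736 and 11261 at 0h and 2794, 2743 and 2731 at 9 weeks. The groups overlapped in neither, with changes of -2.48 (SE 0.05, adjusted p = 4.21e-16) and -2.04 (SE 0.04, adjusted p = 6.25e-16). Msmo1, Acat2, Cyp51 and Hmgcs1 fell (-1.86, -1.79, -1.61 and -1.54 on the log2 scale). Srebf2, the factor behind the pathway, had a difference of 0.53 (SE 0.09, adjusted p = 8.24e-05) and was not called. Sqle, squalene epoxidase, was above its 6-week mean of 353 by 1.31 (adjusted p = 2e-08). The sterol regulatory element, searched as TCACNCCAC on both strands, was in 0 of 10 falling members with a promoter in the table, in 0 of 11 not called and in 1.12% of all promoters. At so low a share, no match was the likely outcome in so few promoters, and nothing is read from it.

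Of 36 genes of fatty acid and triglyceride synthesis 11 fell and 1 rose, with a median of -0.53. Elovl5, which lengthens polyunsaturated fatty acids, had a change of -2.50 (SE 0.08, adjusted p = 8.7e-14), and Gpam, the first step of triglyceride synthesis, fell from 1468 ± 48.3 at 0h to 289 ± 14.1 at 9 weeks. Lipc, hepatic lipase, fell by 1.74 and Acss2, which activates acetate, fell by 1.72. The gene that rose was Lpl, lipoprotein lipase (378 ± 35.0 at 0h to 1297 ± 68.3 at 9 weeks), which normal adult hepatocytes hardly make and macrophages do. Of PPAR-alpha targets, many of which burn fat, 7 of 37 rose, 2 fell and 28 were not called, and their median was 0.13. Among all genes 6.32% were higher and 3.63% lower. Acot2 rose by 2.48, Vnn1, a pantetheinase, by 2.81 and Cidea, a lipid droplet protein, by 2.38, while Pdk4, a brake on glucose oxidation, fell by 1.64.

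Genes of bile acid synthesis and of export to bile were among those that fell. Cyp7a1, which sets the pace of bile acid production, gave signals of 9244, 8439.8 and 9355 at 0h and 3437, 3326 and 3217 at 9 weeks. Abcg8, which with Abcg5 pumps sterol into bile, gave signals of 352, 356 and 323 at 0h and 12.1, 40.6 and 31.4 at 9 weeks. Abcc2, the pump for conjugates at the bile side, gave signals of 4231, 3839 and 4051 at 0h and 1347, 1202 and 1356 at 9 weeks. The groups lay apart in all 3, with changes of -1.43 (SE 0.05, adjusted p = 1.18e-13), -3.09 (SE 0.29, adjusted p = 1.11e-07) and -1.62 (SE 0.06, adjusted p = 6.49e-13). Abcg5 fell by 2.27 and Cyp8b1 fell by 1.24. Of 31 measured, 7 fell and 2 rose, and the rises were the pumps of the blood side, Abcc3 (4.61) and Abcc4 (1.40). The bile salt pump Abcb11 had a log2 difference of -0.64 (SE 0.04, adjusted p = 1.17e-09) and the bile acid receptor Nr1h4 of -0.26 (SE 0.06, adjusted p = 0.00145), and neither was called. Other genes were higher without reaching the limit for a call. Abcb4 gave signals of 2394, 2637 and 2200 at 0h and 3663, 3490 and 3585 at 9 weeks, and Akr1d1 had a log2 difference of 0.85. Abcb1, a drug pump that is no member of the list, rose from 291 ± 30.6 at 0h to 2011 ± 53.5 at 9 weeks on its brightest probe set (2.73). Other probe sets of Abcb1 gave 1.17, a call, and 0.90, not a call. On the brightest probe set 9 weeks exceeded 3 weeks by 3.20 (adjusted p = 1.9e-14).

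Of 51 genes of the urea cycle and amino acid breakdown 16 fell and 0 rose, with a median of -0.51. Oat, ornithine aminotransferase, gave signals of 14635, 15063 and 15278 at 0h and 2190.1, 2101 and 1900.1 at 9 weeks. Hal, which opens histidine breakdown, gave signals of 6064, 6402 and 5998 at 0h and 809.8, 838 and 874 at 9 weeks. No array of either gene overlapped the other group, with changes of -2.85 (SE 0.07, adjusted p = 1.57e-15) and -2.85 (SE 0.08, adjusted p = 2.24e-14). Sds, serine dehydratase, fell by 1.69 and Acmsd of the tryptophan route fell by 1.78. In the urea cycle, Otc fell from 16096 ± 565 at 0h to 7076 ± 107 at 9 weeks, while Cps1 (-0.52, SE 0.05, adjusted p = 2.4e-07) and Ass1 (-0.16, SE 0.05, adjusted p = 0.0143) were not called. Of 37 glucose genes 5 rose, 2 fell and 30 were not called, beside 6.32% higher and 3.63% lower among all genes. Aldoa, the muscle and fetal form of aldolase, rose from 1621 ± 129 at 0h to 4869.5 ± 308 at 9 weeks, Pkm, the fetal form of pyruvate kinase, from 372 ± 35.4 at 0h to 943 ± 49.5 at 9 weeks, and Pck2, the mitochondrial PEPCK, from 182 ± 34.4 at 0h to 1039 ± 45.7 at 9 weeks. Pklr, the adult liver form of pyruvate kinase, fell from 2558 ± 227 at 0h to 1016 ± 108 at 9 weeks. A second probe set of Pklr gave a log2 change of -0.865, not a call. Ribosomal protein genes (0 of 61 called) and respiratory chain genes (1 of 54, lower) were called in at most 1 case a list.

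Of 30 complement genes 4 fell (13.3%, beside 3.63% of all genes) and 26 were not called. Among the falls was C6, a part of the membrane attack complex, with signals of 7609, 7313 and 7341 at 0h and 1753, 1484 and 1482 at 9 weeks. Its groups did not overlap (-2.23, SE 0.07, adjusted p = 3.56e-14), and the mean at 3 weeks was 7445. Mbl2, a mannose-binding lectin that also fell, gave signals of 6455, 6284 and 5698 at 0h and 2176, 2173 and 2152 at 9 weeks. Serpina6, which carries glucocorticoid, fell from 21084 ± 1007 at 0h to 6209.8 ± 135 at 9 weeks, whereas Serpina7, which carries thyroid hormone, rose from 2429 ± 65.4 at 0h to 11214 ± 148 at 9 weeks. Of 25 acute phase genes 3 rose, 1 fell and 21 were not called, beside 6.32% higher and 3.63% lower among all genes. Lbp, which binds bacterial endotoxin, rose by 1.14, and A2m, the major acute phase protein of the rat, fell by 1.58. Haptoglobin (Hp) had a log2 difference of -0.33 (SE 0.07, adjusted p = 0.000525) and was not called.

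Of 33 mitosis genes 9 rose and 0 fell, with a median of 0.68. Mki67, a marker of cycling cells, gave signals of 115, 105 and 99.7 at 0h and 263, 256 and 229 at 9 weeks. Ect2, needed for cell division, rose by 1.29 and Spc24 of the kinetochore by 1.22. Of replication genes, 2 of 35 were higher (Rrm2 by 1.43, Top2a by 1.19) and 1 lower, or 8.57% in all, near the 9.95% of all genes. A second, dimmer probe set of Rrm2 gave 0.24, not a call. Ccnd1, which opens the cycle, gave signals of 761, 842 and 782 at 0h and 2671, 2707 and 3195 at 9 weeks. Cdkn1a, the p21 inhibitor that stops it, gave signals of 176, 296 and 260.4 at 0h and 1673, 1915 and 1711 at 9 weeks. Both were higher on every 9-week array, by 1.82 (SE 0.08, adjusted p = 9.33e-12) and 2.80 (SE 0.16, adjusted p = 2.2e-10). Myc gave signals of 164, 144 and 139 at 0h and 819.6, 723 and 539.9 at 9 weeks. Its 9-week arrays differed among themselves and lay above the 0h arrays (2.09, SE 0.15, adjusted p = 3.64e-09). Of 33 immediate early genes 8 rose, with Jund (1.79), Egr2 (1.49) and Klf6 (1.45) among them. Hspb1, a small heat shock protein, rose by 3.06.

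Matrix genes were called in part. Of 16 measured collagens 4 rose, 0 fell and 12 were not called, with a median of 0.7. Col1a1, a chain of the main scar collagen, gave signals of 155, 139.9 and 158 at 0h and 492, 518 and 602 at 9 weeks. A second probe set of Col1a1 gave a change of 0.4, against 1.73 for the brighter, and was not called. Col3a1, its partner, was brighter but had a log2 difference of 0.61 (SE 0.05, adjusted p = 1.03e-08), below the limit for a call. Col3a1 had been at 10825 at 3 weeks and was at 5404 at 9 weeks. Lama5, a laminin chain of basement membranes, gave 13.5 ± 6.0 at 0h and 214 ± 7.1 at 9 weeks and rose by 2.99, and Ltbp1, which tethers latent TGF-beta, rose by 1.47. Chpf, which builds chondroitin chains, rose by 4.45 from 24.7 ± 2.5 at 0h to 875 ± 84.5 at 9 weeks. Lox, a crosslinker of collagen, fell from 570.0 ± 108 at 0h to 144 ± 8.7 at 9 weeks while its relative Loxl1 rose (2.32, SE 0.37, adjusted p = 5.04e-05). Gas6, a ligand of TAM receptors, fell by 1.32, with other probe sets at -1.89 and 0.62.

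Of 18 stellate cell markers measured (of 25 listed) 4 rose and 1 fell, and their summed signal was 17951 to 18329 at 0h and 18069.6 to 18459.9 at 9 weeks. Acta2, the actin of myofibroblasts, gave 149 ± 38.1 at 0h and 208 ± 6.9 at 9 weeks and was not called (0.47, SE 0.24, adjusted p = 0.111). Desmin (Des) had a log2 difference of 0.81 (SE 0.17, adjusted p = 0.000525) and Pdgfrb of 0.85 (SE 0.23, adjusted p = 0.00443). Cygb rose by 1.31 and Tpm1 by 1.31. In TGF-beta, activin and BMP signalling, 7 of 34 genes rose, 3 fell and 24 were not called, beside 6.32% higher and 3.63% lower among all genes. Tgfb1, the main profibrotic cytokine, gave signals of 11.8, 8.1 and 20.9 at 0h and 359, 387 and 365 at 9 weeks. It was near the floor at 0h and higher on every 9-week array (3.73, SE 0.20, adjusted p = 8.77e-11), while its receptor Tgfbr2 fell by 1.29 and Inhbc, an activin chain of hepatocytes, fell by 1.59. Of 29 measured genes in a list of integrins, annexins and their partners 7 rose and 0 fell. Anxa7 (2.49), S100a11 (1.67) and Anxa2 (1.54) were among the rises.

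Of 13 measured genes that mark macrophages in scars 8 rose and 0 fell, with a median of 1.28. Gpnmb, a lysosomal membrane protein of lipid-laden macrophages, gave signals of 1167, 1018 and 994 at 0h and 9776, 9442 and 9887 at 9 weeks. Mmp12, macrophage elastase, gave signals of 82.7, 26.1 and 88.0 at 0h and 772, 742 and 729 at 9 weeks. Both lay apart from 0h, by 3.18 (SE 0.06, adjusted p = 9.41e-17) and 3.34 (SE 0.28, adjusted p = 2.69e-08). At 6 weeks the signals were already 6624, 6760 and 6475 for Gpnmb and 979, 918 and 965 for Mmp12. Of the 13 genes, 0 were called higher and 1 lower at 9 weeks than at 6 weeks, beside 1.94% and 0.591% of all genes. Lgals3, Cd9 and Pld3 rose by 1.28, 1.44 and 1.52. Of 15 Kupffer cell and macrophage markers 0 rose and 1 fell, Mpeg1 (-1.66, SE 0.08, adjusted p = 2.87e-11), and Cd68 (0.25, SE 0.07, adjusted p = 0.00441) and Cd163 (-0.18, SE 0.10, adjusted p = 0.149) were not called. The summed signal of these 15 was 56293 to 58102 at 0h and 54845 to 56327 at 9 weeks. The scar list was chosen with earlier results known and includes genes that hepatocytes and duct cells can make, such as Spp1.

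Genes of MHC class II show antigen to CD4 T cells. In this list 6 of 7 measured were higher, and the median change was 1.96. RT1-Bb, a class II beta chain, gave signals of 1671, 1562 and 1596 at 0h and 10067, 9729 and 10129.7 at 9 weeks. Cd74, the invariant chain, gave signals of 4996, 4939.7 and 4927 at 0h and 19637, 20827 and 20536 at 9 weeks. RT1-Da gave signals of 4599.8, 4354 and 4568 at 0h and 15786, 15552 and 16256 at 9 weeks. The groups lay far apart in each, with changes of 2.62 (SE 0.05, adjusted p = 1.84e-16), 2.03 (SE 0.04, adjusted p = 2.04e-16) and 1.81 (SE 0.05, adjusted p = 6.99e-15). Ciita, the switch of the set, gave signals of 35.9, 117 and 31.5 at 0h and 151, 161 and 195 at 9 weeks. Its second 0h array came near the 9-week arrays without overlap (1.42, SE 0.36, adjusted p = 0.0031), and its call was lost with an offset of 64. The RT1 genes have near-identical relatives, so their probe sets may read several. The 6 genes were also higher at 9 weeks than at 6 weeks, beside 1.94% of all genes. RT1-Da stood at 3729 at 6 weeks and 11707 at 3 weeks, and the 9-week minus 6-week difference was 2.09 (adjusted p = 2.68e-15).

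Of 26 interferon genes measured, 7 were higher than at 0h and 14 higher than at 6 weeks, with 0 lower in either contrast. Of all genes tested, 6.32% were higher than at 0h and 1.94% higher than at 6 weeks. Against 3 weeks 3 interferon genes were higher and 1 lower, beside 3.01% and 2.77% of all genes. Cxcl9, a chemokine that draws T cells and is induced by interferon-gamma, gave signals of 729, 689.7 and 545 at 0h and 3026, 3035 and 2994 at 9 weeks. Its 6-week mean was 246, so 9 weeks was higher by 3.53 on the log2 scale (adjusted p = 7.3e-15). Gbp2, a guanylate-binding protein, stood at 1179 ± 28.8 at 0h and 2143 ± 34.3 at 9 weeks, not a call (0.85, SE 0.08, adjusted p = 5.99e-08), and at 210.0 at 6 weeks, a difference of 3.26 (adjusted p = 4.58e-15). Rsad2 and Oasl, antiviral genes, rose against 0h by 1.72 and 2.40. However, 19 of the 26 were not called against 0h, among them the antiviral genes Mx1 and Oas1a, which were lower on every 9-week array. Mx1 gave signals of 432, 398 and 395.5 at 0h and 280, 275 and 308.5 at 9 weeks. Oas1a gave signals of 902, 953 and 874 at 0h and 798, 794 and 701 at 9 weeks. Isg15 rose by 1.26.

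**Figure D4:**
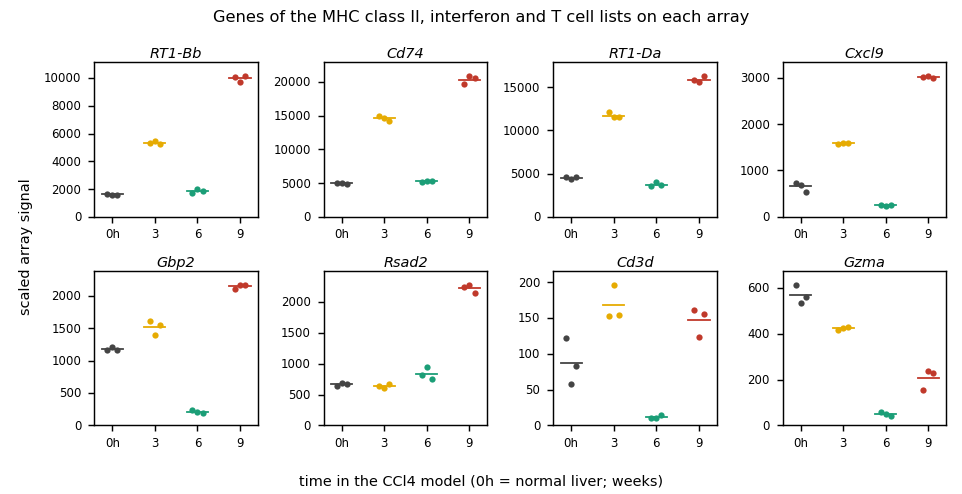
Scaled signal (y axis, linear from 0) on each of the 12 arrays for 8 genes by time in the model (x axis); points are arrays and the line is the mean of 3. RT1-Bb, Cd74, RT1-Da, Cxcl9 and Gbp2 were high at 9 weeks, intermediate at 3 weeks and low at 6 weeks.

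Of 16 T and NK cell markers measured, 0 rose and 1 fell against 0h, whereas 8 were higher than at 6 weeks, beside 1.94% of all genes. Cd3d, a chain of the T cell receptor complex, gave signals of 123, 57.9 and 82.5 at 0h and 162, 124 and 156 at 9 weeks and stood at 11.9 at 6 weeks. Gzmm, a granzyme, stood at 371 ± 17.0 at 0h and 504 ± 30.1 at 9 weeks and at 75.3 at 6 weeks. Gzma, another granzyme, was the marker that fell, from 568 ± 40.6 at 0h to 206 ± 47.0 at 9 weeks, and 9 weeks was still above 6 weeks by 1.75 (adjusted p = 6.74e-07). The summed T and NK signal was 5251 to 5357 at 0h and 5338 to 5588 at 9 weeks, which overlap. Of 5 B and plasma cell markers 2 rose, and Jchain, which joins antibody units, gave signals of 1657, 1796 and 1763 at 0h and 3847, 3512 and 3538 at 9 weeks. Their sum was 2085.0 to 2134 at 0h and 4086 to 4479 at 9 weeks. Of 6 neutrophil and mast cell markers 2 fell and 4 were not called. Those that fell were S100a9 (2894 ± 181 at 0h to 787 ± 14.9 at 9 weeks) and S100a8 (-1.81, SE 0.06, adjusted p = 2.15e-13). Their sum was 5103 to 5480 at 0h and 1929 to 2128 at 9 weeks.

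Chemokines and cytokines went both ways, with 6 of 34 higher, 4 lower and 24 not called, beside 6.32% higher and 3.63% lower among all genes. Cxcl16 rose by 2.07 and Ccl2, which draws monocytes, by 1.53. Il1r1, the receptor of interleukin 1, gave signals of 953, 852 and 865 at 0h and 110.1, 77.8 and 81.8 at 9 weeks. Cxcl12, which holds cells that carry Cxcr4, gave signals of 11389.7, 11392 and 10741 at 0h and 2621, 2571 and 2571 at 9 weeks. Both were lower on every 9-week array, with changes of -3.11 (SE 0.12, adjusted p = 1.41e-12) and -2.10 (SE 0.05, adjusted p = 5.14e-16). Il33, an alarmin, fell from 4829 ± 182 at 0h to 1292 ± 75.7 at 9 weeks. Il1r1 was also lower than at 6 weeks, at a log2 difference of -1.97 (adjusted p = 2.77e-09).

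Bile duct and progenitor markers rose in 5 of 13 measured, and their sum went from 13757 to 14359 at 0h to 25947 to 26641 at 9 weeks. Krt8, a keratin that hepatocytes also make and the brightest of the rises, gave signals of 4108, 4109 and 4128 at 0h and 10126, 9640.2 and 10053 at 9 weeks. Sox4 gave signals of 198, 201 and 213 at 0h and 684, 753 and 660.4 at 9 weeks. Cd24 gave signals of 109, 85.5 and 86.8 at 0h and 318, 329 and 394 at 9 weeks. All 9-week arrays of these genes lay above 0h, by 1.27 (SE 0.05, adjusted p = 1.79e-12), 1.70 (SE 0.10, adjusted p = 2.91e-10) and 1.73 (SE 0.21, adjusted p = 3e-06). The duct keratin Krt19 had a log2 difference of 0.95 (SE 0.22, adjusted p = 0.00166) and Epcam of 0.42 (SE 0.08, adjusted p = 0.000202), below the limit for a call. Against 6 weeks Krt19 was higher by 1.52 (adjusted p = 7.7e-05). Endothelial markers were not called in any of 13, with a sum of 14438 to 14971 at 0h and 11706 to 12564 at 9 weeks.

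Some markers of tissue other than liver moved with the groups. Cpa1, a pancreatic carboxypeptidase, gave signals of 6212, 6538 and 6044 at 0h and 13.4, 38.7 and 50.7 at 9 weeks. The other pancreatic enzymes that fell were Cela1 (1024 ± 179 at 0h to 159 ± 32.0 at 9 weeks) and Cpb1 (209.7 ± 42.4 at 0h to 48.9 ± 24.4 at 9 weeks), and Pnlip, pancreatic lipase, was dim in both groups (signals of 45.7, 56.1 and 70.3 at 0h and 90.0, 61.4 and 99.8 at 9 weeks). In all 5 of 12 listed pancreas markers were measured and 3 fell, with a sum of 22693 to 24065 at 0h and 12434 to 12759 at 9 weeks, most of it Amy2a3, an amylase gene with a liver-expressed relative. Red cell genes fell in 3 of 6, with Hbb (27019 ± 1661 at 0h to 12803 ± 209.6 at 9 weeks) and Ahsp (362 ± 44.4 at 0h to 24.8 ± 20.6 at 9 weeks), and their sum was 58908 to 65610.1 against 32380.3 to 34301. Fabp4, a fat cell and macrophage gene, rose from 58.0 ± 51.6 at 0h to 776 ± 65.6 at 9 weeks, while the other 2 measured fat markers were not called. The part of admixed tissue or blood in other results was not tested.

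Direct contrasts show where 9 weeks differed from the earlier times of the model. Against 6 weeks 261 genes were called (2.53%), 200 higher and 61 lower. Against 3 weeks 597 were called (5.78%), 311 higher and 286 lower. Lcn2, an iron-scavenging acute phase protein, stood at 7795 at 6 weeks, beside 523 ± 20.7 at 0h and 432 ± 39.5 at 9 weeks, a 9-week minus 6-week difference of -4.13 (adjusted p = 4.51e-17), although 9 weeks and 0h differed by -0.27 (SE 0.07, adjusted p = 0.0021). A2m stood at 18865 at 3 weeks, and the 9-week minus 3-week difference was -6.22 (adjusted p = 1.37e-17). Fam111a, a protease that restricts viruses, was higher than at both times, by 3.23 and 3.23. It gave signals of 254, 206 and 202 at 0h and 1276, 1208 and 1081 at 9 weeks. RatNP-3b and Defa5, defensins of neutrophils and of gut, were lower than at 3 weeks (-5.05 and -3.74 on the log2 scale) and than at 6 weeks (-2.45 and -2.13). Fst, a binder of activin, was lower than at 6 weeks, at a log2 difference of -2.80, from a 6-week mean of 901. Against 0h Fst was called at 1.05 (SE 0.28, adjusted p = 0.0044), but its arrays overlapped between the groups, and the call was lost without the second 0h array (0.68), the first 9-week array (0.87) or the third 9-week array (0.98), and with an offset of 64 (0.67).

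Of the 652 genes higher than at 0h, 51 were also higher than at 6 weeks and 4 lower. Of the 375 lower than at 0h, 41 were also lower than at 6 weeks and 22 were higher than at 6 weeks. Against 3 weeks the same counts were 208 and 5 for the rises and 171 and 1 for the falls. The fallers that stood higher than at 6 weeks include Car3, with a 6-week mean of 101 and a 9-week mean of 397, and Ces1d, with 236 and 617. Both remained far below 0h.

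**Figure D5:**
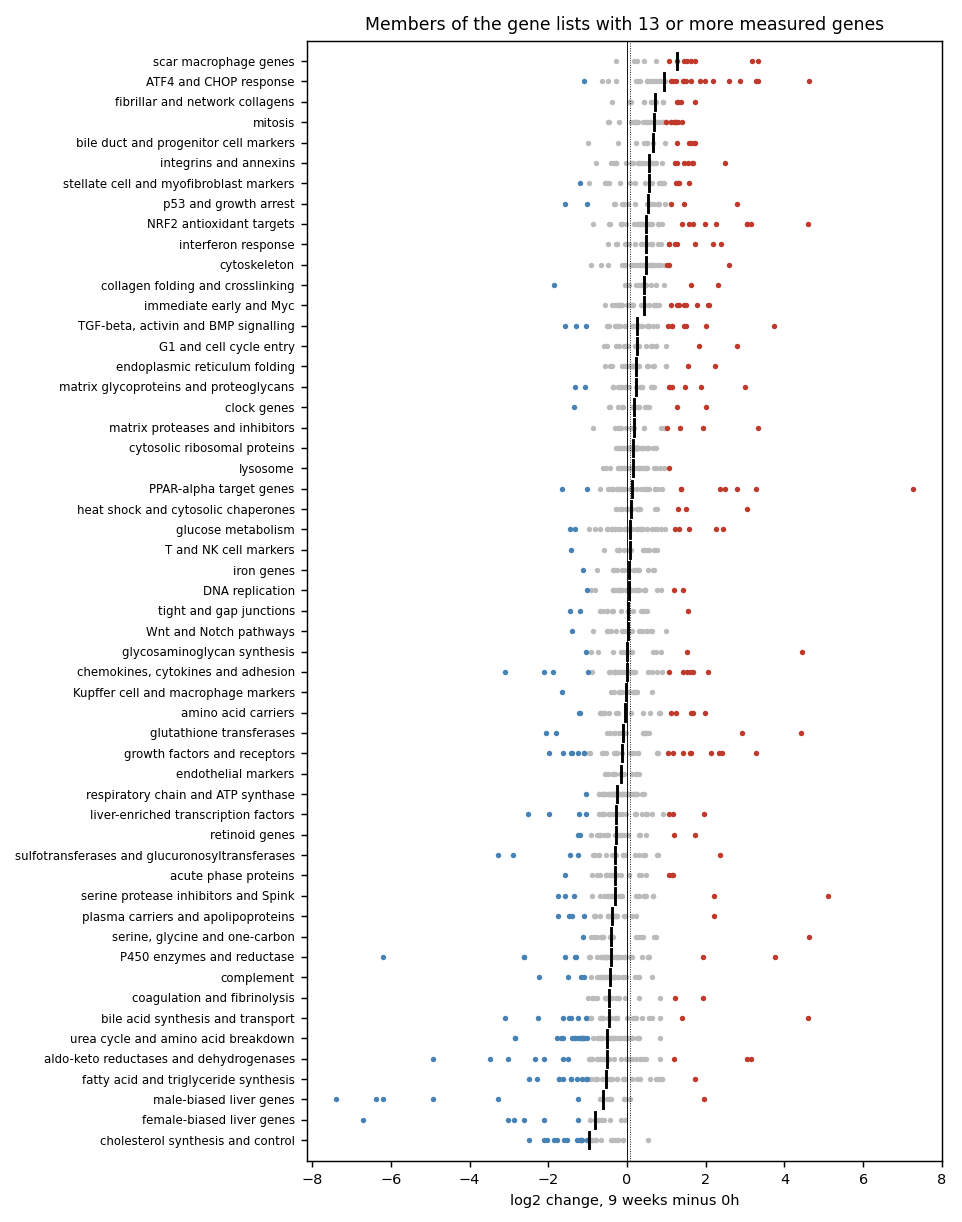
Change from 0h to 9 weeks (x axis, log2) of each measured gene in the gene lists with at least 13 measured genes (rows); points are genes, the bar is the list's median and the dotted line the median of all genes, 0.07. Scar macrophage genes (median 1.28) and the ATF4 and CHOP response (0.95) lie furthest right and cholesterol synthesis (-0.96) furthest left.

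Probe sets of a gene did not always give the same answer. Of the 1027 called genes 238 had several kept probe sets, and in 137 at least 1 probe set was not called. In 4 called genes probe sets were called in opposite directions. Slc25a23, a mitochondrial carrier, rose by 1.32 on its brighter probe set and fell by 1.70 on the other. Atp5if1, the inhibitor of ATP synthase, fell by 2.28 on the brightest and rose by 1.21 and 1.54 on dim ones. RT1-A3, a class I gene with many relatives, rose by 2.28 on the brightest and fell by 1.24 on another. C1qtnf12 fell on its brighter probe set (-1.595) and rose by 1.40 on the other. No single direction is given for these 4 genes. Spink1 rose on all 3 of its probe sets, by 1.62, 4.45 and 5.11, and Trib3 on all 3, by 4.11, 3.96 and 3.34.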

How the data were processed

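Rat liver RNA was measured on 12 Affymetrix Rat Genome 230 2.0 arrays, 3 at each of 4 times. Per the labels' protocols, total RNA was taken with Trizol and RNeasy and turned into biotin-labelled cRNA, and per the submitters' processing notes GCOS 2.0 was used. The deposited values are scaled signals, a linear intensity per probe set, which the authors brought to a trimmed mean of 500.0. The authors also deposited log2 ratios of 9w against 0h arrays, used here as a check: their means and the changes computed here had a Pearson r of 0.969 across probe sets. The number of arrays limits the precision, and no read depth applies.

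Probe sets were named from the deposited table, with symbols updated through RefSeq by synonym (3178 probe sets) or accession (26), while 1516 kept the file's name. In 17 genes the deposited table holds a date in place of a symbol. Signals were taken as log2(signal + 16), probe sets with a mean log2 value above the 40th percentile (6.51, a signal of 75.3) were kept (18625), and each gene was read from its kept probe set of highest mean. limma 3.58.1 in R 4.3.3 fitted 4 group means over the 12 arrays (8 residual degrees of freedom) with an intensity trend in eBayes and Benjamini-Hochberg adjustment over 10322 genes. The fit was tested on simulated data. Plots were drawn in matplotlib 3.10.9 and tables made with numpy 2.4.6 and pandas 2.3.3 under Python 3.11.15.

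Named genes are the 20 largest rises and falls whose arrays do not overlap (locus and clone names left out), the 4 called members with the largest change in each direction of a gene list, the 6 largest rises and falls against 6 and against 3 weeks, and other list members given with their values. The members and lists were chosen with earlier results of these data known. Promoters are RefSeq's, build GRCr8. Alternatives were the offset, filter, normalization, probe set rule, fold limit, prior, arrays in the fit, source table, replicate block and each array left out. Some genes that the rule names are not reported here.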

Additional observations from a re-analysis of the deposited data

Results flagged for a closer look

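Some genes that fell from 0h to 9 weeks stood higher at 9 weeks than at 6 weeks, by the direct test of that difference (limma, adjusted p below 0.05 and at least 2-fold). The 9-week minus 6-week differences on the log2 scale were 1.85 for Car3, 1.32 for Ces1d, 1.11 for A1bg and 1.03 for Nrep.

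Probe sets without a gene symbol lie outside the comparison of named genes. Of 4822 tested, 268 were higher and 138 lower at 9 weeks than at 0h, or 8.42% in all, beside 9.95% of the named genes.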

How the results depend on the processing

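Among called genes that were named or listed, no change reversed direction in any alternative that still tested the gene. Counts and gene lists were checked for size alone, and genes not called were not checked for a reversal. Of the counts of called genes, 96 under other settings and the 54 with an array left out stayed within 1.5 times, and 9 did not. At 1.5-fold in place of 2-fold, 2603 genes were called between 9 weeks and 0h, 1617 higher and 986 lower. With every probe set tested by itself, 660 were lower. Against 6 weeks, an offset of 64 gave 166 calls, 132 higher and 34 lower, and the lower calls numbered 93 with no filter and 34 with the filter at the 60th percentile. With an array left out, calls against 0h ran from 1020 to 1042 (higher 646 to 661, lower 369 to 389), against 6 weeks from 252 to 274 (188 to 212, 56 to 73) and against 3 weeks from 585 to 620 (303 to 329, 282 to 292). Same-numbered 0h and 9-week arrays did not deviate together (r -0.029, 0.027 and -0.021), so they were taken to share only a number, and with the replicate block the calls were 1025 against 0h (651 higher, 374 lower), 261 against 6 weeks and 598 against 3 weeks (312 and 286). Among named genes 42 calls were lost and 1962 held with an array left out, and 77 were lost and 3531 held under other settings, 42 of the losses at an offset of 64. The filter at the 60th percentile left 272 of 334 called changes to test, and those it removed count as neither lost nor held. Among the counts of called list members, 27 moved by over 1.5 times and 777 did not with an array left out, and 55 moved and 1419 did not under other settings. Ciita lost its call at an offset of 64. The cause was not tested. Signals near the floor limit the folds of dim genes: the change of Acot1 ran from 5.71 to 9.00 over the settings.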
